A study of Mus musculus with 6 samples.

Results

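Proteasome genes were followed in skeletal muscle of dystrophic mice after an antibody against regulatory T cells. The members were the genes with a probe set assigned to 1 gene symbol that begins with Psm, a letter from a to g and a digit, and the brightest probe set stood for each gene. This rule gave 50 of the 19752 genes measured. They comprised 31 constitutive subunits, 5 genes of the immunoproteasome and its activator, and 14 others, namely assembly chaperones, other activators, an inhibitor, tissue-specific subunits and 2 genes, Psmc3ip and Psme3ip1, that match by symbol and encode no subunit. No filter on intensity was applied, so all 50 entered every count. The question put to them was whether Psmb8, Psmb9, Psmb10, Psme1 and Psme2 differed between treatments otherwise than the constitutive subunits.

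All 6 samples came from mdx mice, which lack dystrophin and whose muscle fibres degenerate and regenerate amid immune cells. In 3 samples the mice had received anti-CD25 mAb, clone PC61, and in the other 3 rat IgG as the control antibody, injected 2 times, on days 17 and 20 of age. CD25 is the interleukin-2 receptor alpha chain, which regulatory T cells carry in quantity. The design text places dissection 7 days after the second injection, but the age in the sample labels is 6 weeks. The labels call every mouse male and do not name the muscle. Whether replicates came from different mice is not stated. Sex genes, given below, set array 3 of each group apart from arrays 1 and 2, so a group was not all from the same mouse. Each p-value reflects sample-to-sample spread alone, part of which may be technical and part a difference of sex.

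The proteasome degrades proteins marked with ubiquitin. Its barrel-shaped core has outer rings of alpha subunits, which gate the entrance, and inner rings of beta subunits, of which Psmb5, Psmb6 and Psmb7 carry the constitutive active sites. A regulatory particle, built from a base with ATPases and a lid, binds ubiquitin chains and unfolds the substrate. Under interferon gamma, and in many leukocytes at rest, the active subunits are replaced in newly built cores by Psmb8, Psmb9 and Psmb10, and the activator PA28, made of Psme1 and Psme2, is induced. This immunoproteasome favours peptides that fit MHC class I molecules. In muscle the proteasome also carries out much of the protein breakdown of wasting.

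Promoter sequences are shown for the 3 catalytic genes whose window held an interferon or stress response motif, since they belong to the pairs compared below. The windows are the 120 bases upstream of the annotated start in RefSeq, build GRCm38.p6, read along the gene's strand. Capitals mark TTCNNNGAA in Psmb8, the letters of a gamma-activated site (GAS), and TGACNNNGC in Psmb5 and Psmb6, the core letters of an antioxidant response element (ARE), to which NRF1 and NRF2 can bind. Psmb8 lies at chr17:34198075-34198194 on the plus strand, Psmb5 at chr14:54617996-54618115 on the minus strand and Psmb6 at chr11:70525237-70525356 on the plus strand.
Psmb8: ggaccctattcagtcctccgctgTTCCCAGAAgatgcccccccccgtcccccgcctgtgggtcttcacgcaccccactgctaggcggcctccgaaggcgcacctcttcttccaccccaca
Psmb5: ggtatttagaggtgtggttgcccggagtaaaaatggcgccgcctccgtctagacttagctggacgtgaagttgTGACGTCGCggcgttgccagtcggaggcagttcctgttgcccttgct
Psmb6: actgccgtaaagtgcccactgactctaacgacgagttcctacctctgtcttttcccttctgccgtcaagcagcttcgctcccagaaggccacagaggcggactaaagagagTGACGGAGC

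The table of promoters held 42 of the 50 members, and 250 bases upstream of the start were searched on both strands. The GAS letters were in 1 of the 5 immunoproteasome and PA28 genes, Psmb8, in 0 of the 25 constitutive subunits with a sequence, and in 8.13% of all 27025 genes. The ARE letters were in 0 of those 5, in 4 of the 25 constitutive subunits and in 11.5% of all genes. The letters of the interferon-stimulated response element (ISRE), searched as a pair of GAAA runs 2 letters apart, were in 0 of the 5, 2 of the 25 and 3.46% of all genes. The box CCAAT was in 1 of the 5, Psmb9, in 10 of the 25 and 37.5% of all genes. These matches describe letters in a window and are not evidence of binding.

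Fibre genes bore out the tissue label, since 9 of 10 listed, such as Acta1 and Ckm, lay above the 99th percentile of all genes, all but Myh7. The sex label was not borne out. Xist, which coats the inactive X chromosome, lay between 11.77 and 11.94 log2 units on 4 arrays, numbers 1 and 2 of each group, and at 5.48 and 5.49 on rat IgG 3 and anti-CD25 3, where Kdm5d, Eif2s3y and Uty of the Y chromosome were high. Arrays correlated at 0.991 to 0.996 across genes, and rat IgG 3 lay apart from its own group, at 0.991. Results are given by Xist level after the comparison of all arrays.

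The immunoproteasome genes did not differ between treatments beyond the spread between arrays. Psmb8, the exchanged partner of Psmb5, lay at 7.49, 7.49 and 7.63 log2 units on rat IgG arrays 1, 2 and 3, and at 7.78, 7.41 and 7.59 on anti-CD25 arrays 1, 2 and 3. Anti-CD25 1 was the highest array and anti-CD25 2 the lowest, so the treated group enclosed the control group. The control mean was 7.54 ± 0.079 (SD, n = 3) and the treated mean 7.59 ± 0.18 (SD, n = 3). The difference, anti-CD25 minus rat IgG here and throughout, was 0.055 (95% interval -0.18 to 0.29, limma adjusted p = 0.921), and its sign turned without anti-CD25 1, at -0.036.

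Psmb9, the partner of Psmb6, lay at 8.27, 8.19 and 8.13 with rat IgG and at 8.25, 8.01 and 8.17 with anti-CD25. Anti-CD25 2 was again the lowest array, and the other 5 arrays lay from 8.13 to 8.27. The difference was -0.055 (95% interval -0.26 to 0.15, limma adjusted p = 0.908) and 0.012 without anti-CD25 2. Psmb10, the partner of Psmb7, lay at 8.45, 8.51 and 8.66 with rat IgG and at 8.73, 8.50 and 8.47 with anti-CD25. As in Psmb8, anti-CD25 1 was the highest array, and the groups overlapped. The difference was 0.026 (95% interval -0.20 to 0.25, limma adjusted p = 0.964) and -0.053 without anti-CD25 1.

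Psme1 and Psme2 encode the alpha and beta chains of PA28, a ring that opens the core for short substrates. Psme1 lay at 9.29, 9.49 and 9.50 with rat IgG and at 9.41, 9.39 and 9.30 with anti-CD25, a difference of -0.058 (95% interval -0.26 to 0.15). Psme2 lay at 9.47, 9.46 and 9.54 with rat IgG and at 9.55, 9.46 and 9.56 with anti-CD25, a difference of 0.034 (95% interval -0.14 to 0.21). The groups overlapped in both genes, and limma's adjusted p was 0.900 and 0.936. Another probe set assigned jointly to Psme2 and Psme2b, a near-identical copy, stood at a difference of 0.15 and was not used, since its signal cannot be given to either gene.

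All 5 genes were brighter than the median gene, with Psmb8 at percentile 54.8 of all genes by mean intensity and Psme2 at percentile 86.9. Their 95% intervals, from -0.26 to 0.29 over the 5, bound a change to between 0.834-fold and 1.23-fold. Smaller changes in either direction could not be detected with 3 arrays a group. In whole muscle, fewer cells of a type and less RNA per cell cannot be told apart, so a difference in a rare cell type can also be lost in these values.

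**Figure D1:**
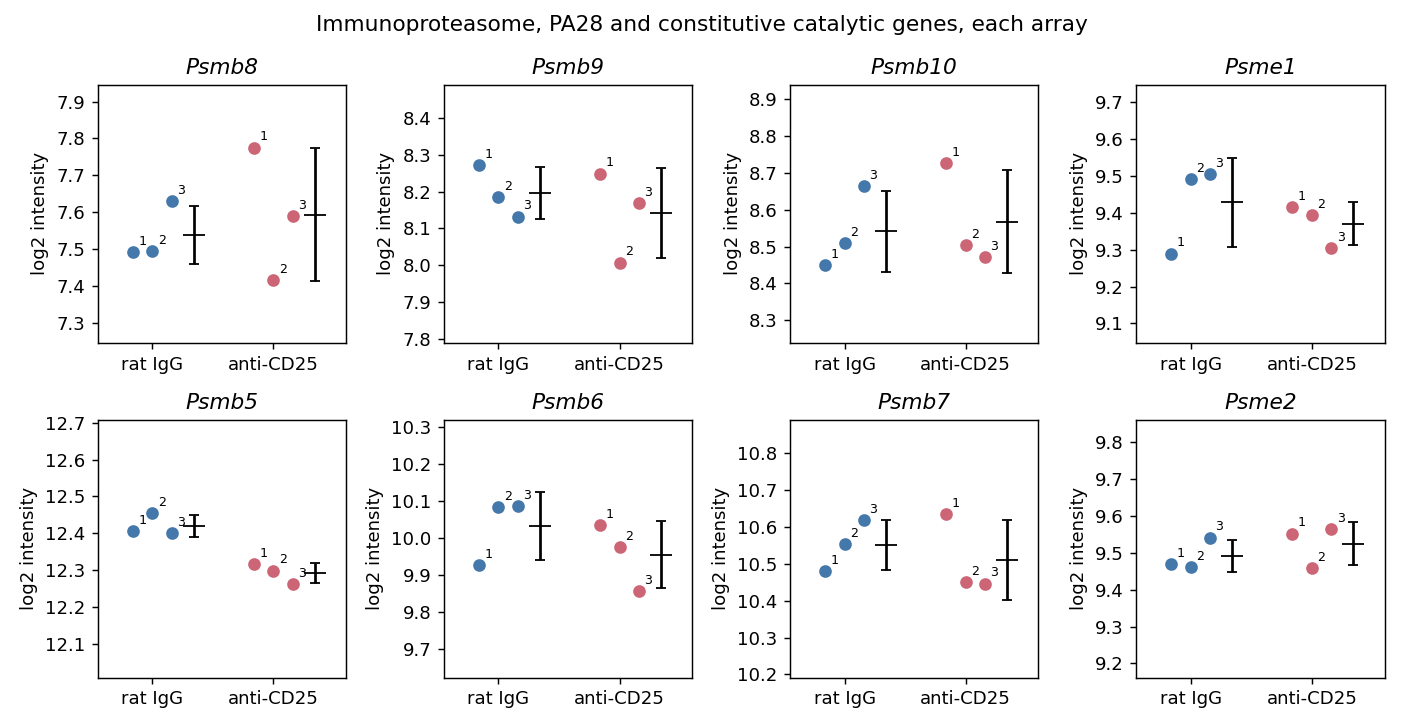
Log2 intensity (y axis, each panel spanning 0.7 log2 units) of the 3 catalytic immunoproteasome genes and their constitutive partners below them, with Psme1 and Psme2 at the right, on rat IgG arrays (blue) and anti-CD25 arrays (red), numbered by replicate. Black bars give mean ± SD; Psmb5 is the panel in which the groups do not overlap, and in Psmb8 the treated arrays, from 7.41 to 7.78, enclose the controls.

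By the brightest probe set of each gene, Psmb5, a constitutive active subunit, was the only member of the 50 whose groups did not overlap. In a dimmer probe set of Psmb3, given below, the groups did not overlap either. Psmb5, which carries the chymotrypsin-like activity, lay at 12.41, 12.45 and 12.40 with rat IgG and at 12.32, 12.30 and 12.26 with anti-CD25. Every treated array lay below every control array, at 12.29 ± 0.028 (SD, n = 3) against 12.42 ± 0.030 (SD, n = 3). The difference was -0.13 (SE 0.074, 95% interval -0.30 to 0.041, limma adjusted p = 0.750, unadjusted p = 0.121), or 1.09-fold lower. It did not pass the test, and it ran from -0.14 to -0.11 when each array was left out in turn. Over all genes 11.7% had groups that did not overlap, against 1 of the 50 members, or 7.46% with anti-CD25 lower.

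Psmb6, with the caspase-like activity, lay at 9.93, 10.08 and 10.09 with rat IgG and at 10.03, 9.97 and 9.86 with anti-CD25, a difference of -0.078 (95% interval -0.28 to 0.12). Psmb7, with the trypsin-like activity, lay at 10.48, 10.55 and 10.62 with rat IgG and at 10.64, 10.45 and 10.45 with anti-CD25, a difference of -0.041 (95% interval -0.24 to 0.16). In both genes the groups overlapped, and limma's adjusted p was 0.854 and 0.930. Thus 3 of 3 constitutive active subunits and 1 of 3 exchanged partners were lower in the mean, with no test passed.

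Taken per array, the shift of each exchanged partner relative to the subunit it replaces overlapped between groups in all 3 pairs. The values here are differences between deviations from each gene's mean over the 6 arrays, since levels of different probe sets cannot be compared. Psmb8 relative to Psmb5 lay at -0.12, -0.17 and 0.020 with rat IgG and at 0.25, -0.093 and 0.12 with anti-CD25, a group difference of 0.18. Anti-CD25 1 and 3 lay above all control arrays and anti-CD25 2 did not. The group difference was 0.023 for Psmb9 relative to Psmb6 and 0.067 for Psmb10 relative to Psmb7.

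The mean of the 5 immunoproteasome and PA28 genes was -0.045, -0.011 and 0.055 with rat IgG and 0.10, -0.084 and -0.020 with anti-CD25, relative to the mean over the arrays. The highest and the lowest array were both treated ones, and the group difference was 0.00052. The mean of the 31 constitutive subunits was -0.016, -0.037 and 0.019 with rat IgG and -0.015, 0.054 and -0.0052 with anti-CD25, a group difference of 0.023. The first mean minus the second was -0.029, 0.027 and 0.036 with rat IgG and 0.12, -0.14 and -0.015 with anti-CD25. On anti-CD25 1 all 5 immunoproteasome and PA28 genes lay above their own mean, and on anti-CD25 2 none (0 of 5) did. The group difference of -0.022 in that contrast was smaller than the spread within the anti-CD25 group, 0.13 (SD, n = 3), and it turned to 0.041 without anti-CD25 2. No p is given for these means, because the members were chosen with earlier results of these data known.

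**Figure D2:**
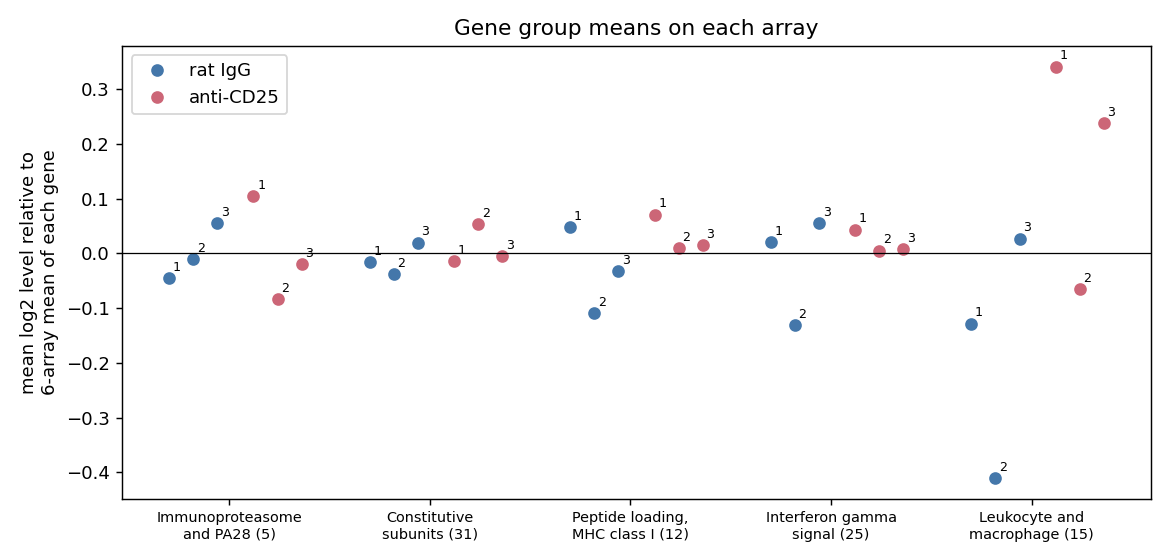
Mean log2 level of gene groups on each array (y axis, relative to the 6-array mean of each gene; number of genes in brackets), rat IgG in blue and anti-CD25 in red, numbered by replicate. The immunoproteasome mean stays between -0.084 and 0.10 and the constitutive mean between -0.037 and 0.054, while the leukocyte and macrophage mean runs from -0.41 to 0.34.

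Across the 50 members, 0 had an adjusted p under 0.05 by limma, as did 0% of all genes, and 0 had an unadjusted p under 0.05, against 6.28% of all genes (2.3% higher and 3.98% lower). The smallest unadjusted p among the members was 0.104, for Psma8, and no alternative fit called a member. In the mean 30 members were higher and 20 lower, with a median difference of 0.0093, against 41.1% higher, 58.9% lower and a median of -0.026 over all genes. Many of the members are bright, and the 30% brightest genes had a median difference of 0.019. All 50 intervals held 0, and they reached from -0.43 to 0.48 at the widest, which is from 0.744-fold to 1.40-fold. The median SD within groups was 0.093 for the members and 0.12 over all genes. A value for the 30% brightest genes, a closer match to many of the members, is not given.

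**Figure D3:**
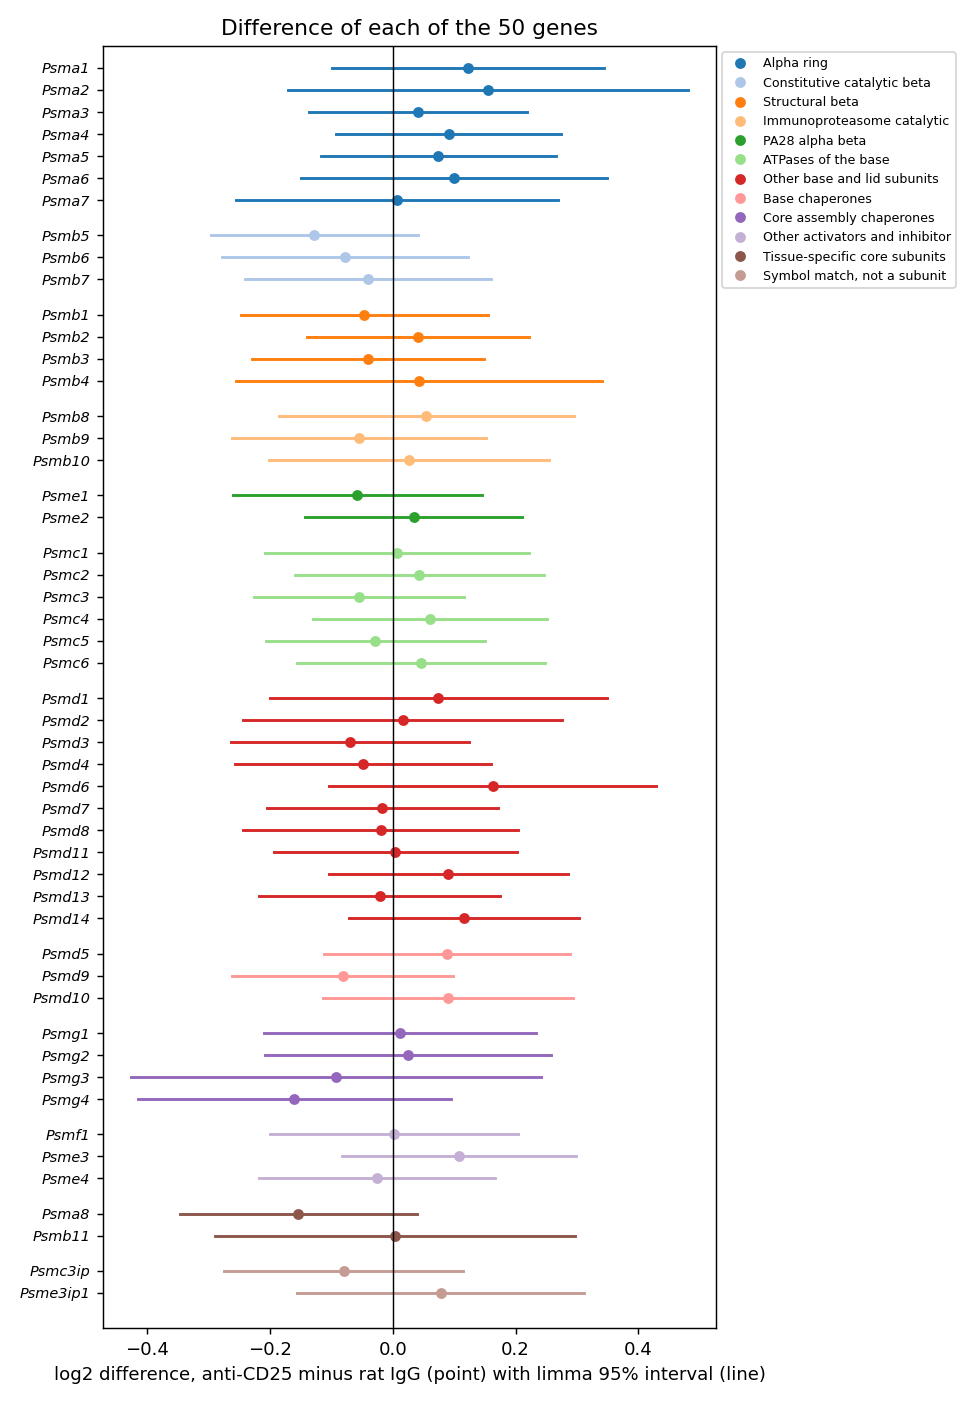
Difference of each of the 50 genes, anti-CD25 minus rat IgG in log2 units (x axis; point), with limma's 95% interval (line), coloured by role. Every interval crosses 0; the 7 alpha ring genes lie at or above 0 and the 3 constitutive catalytic genes below it.

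Of the alpha ring, 7 of 7 genes were higher in the mean, with a median of 0.091 and no test passed. Among the 30% brightest genes, to which they belong, 3387 of 5926 were higher. Psma2 stood highest, at 8.99, 8.55 and 8.62 with rat IgG and 8.66, 9.08 and 8.88 with anti-CD25, a difference of 0.16 (95% interval -0.17 to 0.48). Both groups spread over about the same range, so the groups overlapped. Psma7 stood lowest, at 0.0069, and below 0 after a second quantile normalization. The mean of the 7 genes lay at -0.036, -0.088 and -0.0027 with rat IgG and at 0.046, 0.069 and 0.012 with anti-CD25, without overlap, a difference of 0.084. No other role group of members had a mean without overlap, and this one stood out after the values were seen and was not tested. The alpha ring difference stood at 0.12 among the 4 arrays high in Xist and at 0.015 between the other 2. Between those 2 arrays Psma1, Psma4, Psma5 and Psma7 were below 0, and Psma2, Psma3 and Psma6 above it. Of the beta subunits without an active site, 2 of 4 were higher, with Psmb4 at 0.042 and Psmb1 at -0.047 as the extremes, and both turned sign with an array left out.

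In the base, 4 of the 6 ATPases that thread the substrate into the core were higher in the mean, with a median of 0.025. Psmc4 stood highest, at 0.061 (95% interval -0.13 to 0.25), and Psmc3 lowest, at -0.055 (95% interval -0.23 to 0.12). Of the 11 other base and lid subunits, 6 were higher, with a median of 0.0042. Psmd6, a scaffold subunit of the lid, lay at 10.59, 10.28 and 10.36 with rat IgG and at 10.38, 10.70 and 10.64 with anti-CD25. Rat IgG 1 lay above anti-CD25 1 and below the other treated arrays, so the groups overlapped. Its difference of 0.16 (95% interval -0.10 to 0.43, limma adjusted p = 0.777) was the largest of all members. Psmd3, also of the lid, stood lowest, at -0.069. Psmd14, the lid's deubiquitinase, stood at 0.12 (95% interval -0.071 to 0.30).

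Chaperones that assemble the base, Psmd5, Psmd9 and Psmd10, differed by 0.088, -0.082 and 0.090. Psmg2 and Psmg4, chaperones of alpha ring assembly, stood at 0.025 and -0.16, the highest and the lowest of the 4 Psmg genes. Psmg4 lay at 7.87, 8.02 and 8.24 with rat IgG and at 8.0, 7.89 and 7.77 with anti-CD25, with overlap (95% interval -0.42 to 0.094, limma adjusted p = 0.774). Of the other regulators, Psme3, the nuclear PA28 gamma, differed by 0.11 (95% interval -0.083 to 0.30), Psme4, the activator PA200, by -0.025 and the inhibitor Psmf1 by 0.0021. Psma8, the alpha subunit of spermatogenic cells, differed by -0.15 and Psmb11, the thymic active subunit, by 0.0038. They are the dimmest members, at percentiles 17.4 and 27.6 of all genes by mean intensity, and differences of dim probe sets are understated. Psmc3ip and Psme3ip1, which encode no subunit, differed by -0.080 and 0.078.

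The constitutive subunits did not move as a block across the arrays. In 9 of the 31 (29.0%) the 3 brightest arrays were rat IgG 1, anti-CD25 2 and anti-CD25 3, and in another 8 (25.8%) they were the other 3, rat IgG 2, rat IgG 3 and anti-CD25 1. Each of these sets of arrays mixes the treatments. A further 6 (19.4%) were brightest on rat IgG 2, rat IgG 3 and anti-CD25 2. Over all genes the shares were 5.07%, 4.4% and 7.6%, and among the 30% brightest genes 8.88%, 7.58% and 12.8%. The pattern was singled out after the values were seen and was not tested.

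The first set holds Psma2, Psma6, Psmb4, Psmc1, Psmc4, Psmd1, Psmd2, Psmd6 and Psmd12. Psmd1, the largest subunit of the base, lay at 11.46, 11.22 and 11.31 with rat IgG and at 11.16, 11.51 and 11.55 with anti-CD25, and its neighbour in the base Psmd2 from 10.92 to 11.22, highest on rat IgG 1, and at 10.87, 11.16 and 11.15. The second set holds Psma7, Psmb3, Psmb6, Psmb7, Psmc3, Psmd3, Psmd8 and Psmd13. Psma7 lay at 8.72, 9.01 and 9.14 with rat IgG and at 9.04, 8.98 and 8.88 with anti-CD25, so the array that was dimmest for Psma7, rat IgG 1, was the brightest for Psmd2. Both sets hold genes of the alpha ring, the beta rings, the ATPases and the lid. As deviations from the group means, 54.4% of the 465 pairs of constitutive subunits varied in the same direction over the 6 arrays, with a median correlation of 0.12. Among the 5 immunoproteasome and PA28 genes, 90% of the 10 pairs did, with a median of 0.47. Between these 5 genes and the constitutive subunits, 50.3% of 155 pairs did, with a median of 0.025. No share over all genes is given beside them, so a share particular to the members cannot be read from them. These correlations share the same 6 arrays and are descriptions.

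**Figure D4:**
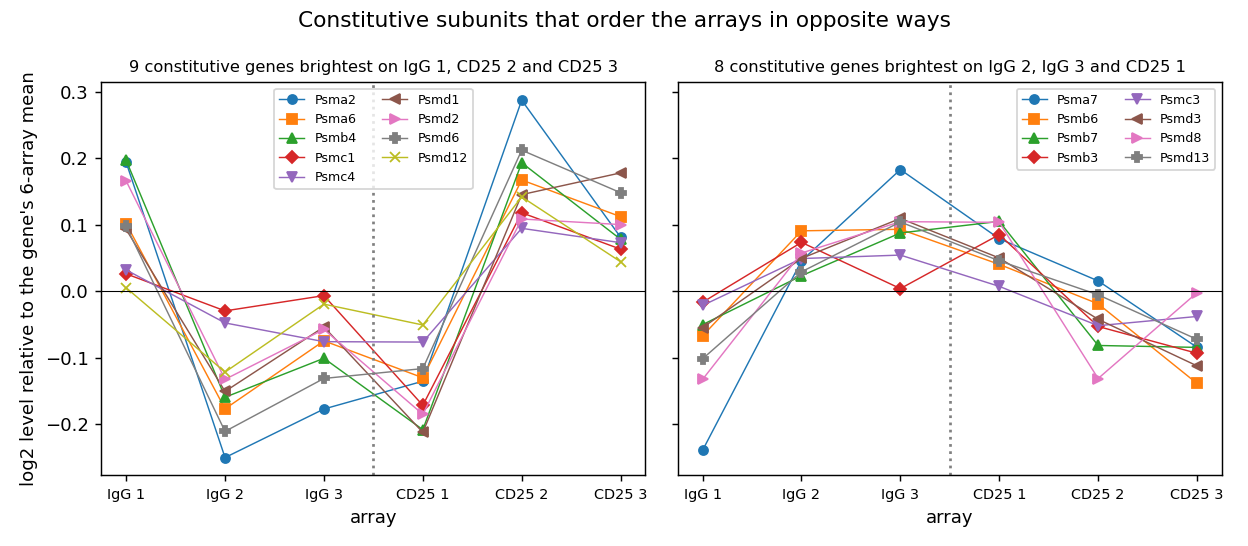
Log2 level of constitutive subunits on each array (y axis, relative to the gene's 6-array mean), for the 9 genes brightest on rat IgG 1, anti-CD25 2 and anti-CD25 3 (left) and the 8 brightest on the other 3 arrays (right); the dotted line separates rat IgG from anti-CD25. The lines show array order only. The genes were selected by that order, so the 2 panels mirror each other by construction.

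**Figure D5:**
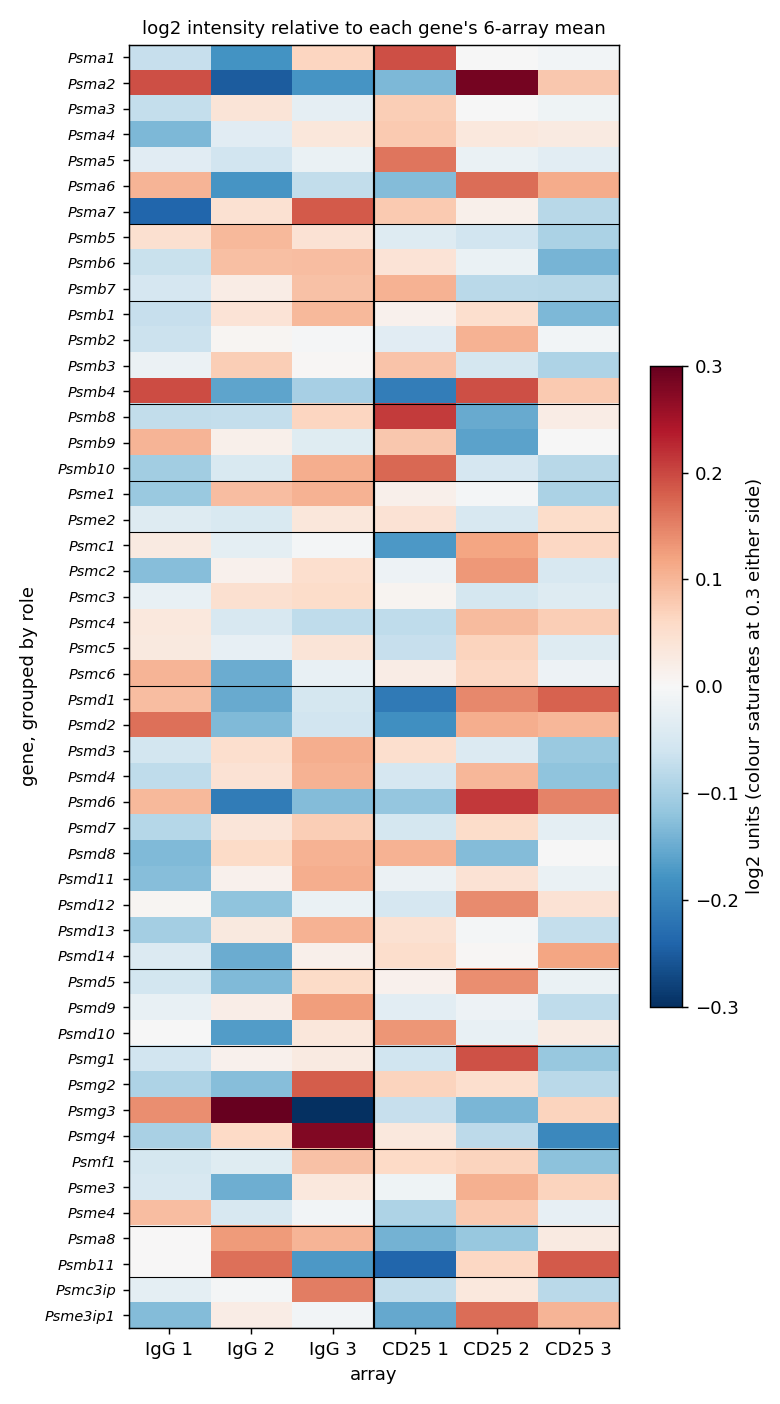
Log2 intensity of the 50 genes on each array relative to the gene's 6-array mean (colour, red higher and blue lower), with genes grouped by role between thin lines and the thick line separating rat IgG from anti-CD25. Neighbouring genes of the same role often differ in sign on the same array, and Psmb5 is the row with every rat IgG array above every anti-CD25 array.

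Where a gene had several probe sets, they gave like differences, with an exception. The 3 probe sets of Psma3 stood at 0.041, 0.042 and 0.045, those of Psma5 at 0.074 and 0.023, those of Psmb3 at -0.041 and -0.086 and those of Psmd2 at 0.016 and 0.063. The dimmer probe set of Psmb3 lay at 12.04, 12.17 and 12.11 with rat IgG and at 12.02, 12.01 and 12.03 with anti-CD25, without overlap. In the brighter one, which stood for the gene, the groups overlapped. For Psmc1 the brightest stood at 0.0066 and the other at 0.22. Transcripts of near-identical copies elsewhere in the genome may enter these probe sets and were not separated.

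Genes that build or control proteasomes but lie outside the rule were taken from a fixed list, of which 11 of 18 symbols were measured, aliases included. In the mean 8 were higher and 3 lower, with a median of 0.033, and 0 passed the adjusted test. Nfe2l2, which encodes NRF2, a factor of the oxidative stress response that can raise proteasome genes, lay at 10.66, 10.56 and 10.70 with rat IgG and at 10.73, 10.93 and 10.98 with anti-CD25. The groups did not overlap, and the difference was 0.24 (SE 0.093, limma unadjusted p = 0.0295, adjusted p = 0.750). Groups also did not overlap in Ubqln1, another gene of the list, at 0.032, which makes 2 of the 11. The share without overlap and higher was 4.28% of all genes and 8.15% of the 30% brightest, to which both belong. At a limma unadjusted p under 0.05, 1 of the 11 was higher, against 2.3% of all genes. Nfe2l1, which encodes NRF1, the factor that restores proteasome genes when degradation is impaired, differed by -0.068, and Pomp, the maturation factor of the core, by -0.0066. Usp14, a deubiquitinase on the regulatory particle, stood at 0.14 and Akirin2, an import factor for nuclear proteasomes, at -0.074.

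Of 10 ubiquitin genes listed, 5 were measured, with 2 higher and 3 lower. Fbxo32, the muscle ubiquitin ligase atrogin-1, lay at 9.57, 9.82 and 9.25 with rat IgG and at 9.32, 9.24 and 9.02 with anti-CD25, with overlap. The difference was -0.35 (SE 0.15, limma unadjusted p = 0.0398, adjusted p = 0.750). Uba6, an enzyme that activates ubiquitin, stood at 0.15 and the ligase Stub1 at -0.10.

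Genes that load the peptides cut by the proteasome onto MHC class I were higher in 9 of 12 measured members, with a median of 0.085, and 0 passed the adjusted test. Groups did not overlap in 3 higher genes, against 4.28% of all genes and 8.15% of the 30% brightest, to which these 3 belong, and in 1 lower gene, Tap2, against 7.46% of all genes. Pdia3, a disulfide isomerase of the loading complex, lay at 11.19, 10.72 and 10.97 with rat IgG and at 11.35, 11.27 and 11.33 with anti-CD25, a difference of 0.35 (SE 0.12, limma unadjusted p = 0.0148, adjusted p = 0.750). B2m, the light chain of class I molecules, lay at 12.68, 12.50 and 12.59 and at 12.81, 12.68 and 12.78, a difference of 0.17 (95% interval -0.026 to 0.36), and the chaperone Calr stood at 0.13. The peptide transporter genes Tap1 and Tap2, which lie beside Psmb9 and Psmb8 in the MHC region, differed by 0.012 and -0.096. Nlrc5, the transactivator of class I genes, differed by -0.093, which turned to 0.012 with the mean of all its probe sets. H2-K1 and H2-D1 are not analysed here.

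Genes of the interferon gamma signal, the classic inducer of the immunoproteasome, were higher in 13 of 25 measured members, with a median of 0.012, and 0 passed the adjusted test. Ifng itself was dim, at the 24.5th percentile, and differed by -0.080 (95% interval -0.35 to 0.19). Ifngr1, a chain of its receptor, lay at 10.26, 10.21 and 10.40 with rat IgG and at 10.56, 10.48 and 10.58 with anti-CD25, a difference of 0.25 (SE 0.085, limma unadjusted p = 0.0156, adjusted p = 0.750). Socs1, the feedback inhibitor of the signal, lay at 7.67, 7.89 and 7.84 and at 7.46, 7.55 and 7.64, a difference of -0.25 (SE 0.093, limma unadjusted p = 0.0258, adjusted p = 0.750). Neither gene's groups overlapped, which makes 2 of the 25 genes, or 8%, against 11.7% of all genes. Irf1, a factor that acts on Psmb8 and Psmb9, differed by -0.019 and the kinase gene Jak2 by 0.20.

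Immunoproteasome genes are usually high in leukocytes and macrophages, so markers of these cells are given beside them. All 15 measured markers were higher in the mean with anti-CD25, with differences from 0.14 to 0.71 and 0 past the adjusted test. Their mean was -0.13, -0.41 and 0.027 with rat IgG and 0.34, -0.066 and 0.24 with anti-CD25. On the same arrays the mean of the 5 immunoproteasome and PA28 genes was -0.045, -0.011 and 0.055 with rat IgG and 0.10, -0.084 and -0.020 with anti-CD25. Anti-CD25 1 was the highest array in both. The lowest was rat IgG 2 for the markers and anti-CD25 2 for the 5 genes. At an unadjusted p under 0.05, 6 of the 15 were higher, against 2.3% of all genes and 222 of the 5926 genes in the brightest 30%. The markers share the same 6 arrays. Groups overlapped in the mean of the 15 and in all of them but 1, Mertk. Mertk, a receptor for the uptake of dying cells, lay at 8.84, 8.30 and 8.93 with rat IgG and at 9.43, 9.24 and 9.53 with anti-CD25, without overlap, a difference of 0.71 (95% interval 0.34 to 1.07, limma unadjusted p = 0.0018, adjusted p = 0.750). Ptprc, the pan-leukocyte antigen CD45, differed by 0.43 (95% interval -0.055 to 0.92). T and NK cell markers had a mean difference of -0.051 and B and plasma cell markers of -0.20, where 0 of 4 were higher. In the mean 2 of 6 dendritic, 2 of 5 endothelial, 3 of 6 fibroblast and 2 of 10 muscle fibre markers were higher. Groups did not overlap, with anti-CD25 lower, in the B cell marker Cd79a at -0.42 (limma unadjusted p = 0.0059, adjusted p = 0.750) and in the dendritic markers Xcr1 at -0.20 and Ccr7 at -0.21 (limma unadjusted p = 0.033 and 0.035, adjusted p = 0.750 for both). Cd79a is dim, at percentile 14.2. Non-overlap with anti-CD25 lower thus held in 1 of 4 B and plasma cell markers and 2 of 6 dendritic markers, against 7.46% of all genes. At an unadjusted p under 0.05 by limma, 3.98% of all genes were lower. The B cell marker Cd79b stood at -7.6e-06, and the 2 higher dendritic markers, Itgax and Clec9a, at 0.33 and 0.017. The part of these cells in the proteasome values was not tested.

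The treatment difference was also taken within each Xist level. Psmb5 stood at -0.12 when the high-Xist arrays were compared and at -0.14 between the low ones, rat IgG 3 and anti-CD25 3. In the same order Psmb8 stood at 0.10 and -0.041, Psmb9 at -0.10 and 0.036, Psmb10 at 0.14 and -0.19, Psme1 at 0.013 and -0.20, and Psme2 at 0.040 and 0.022. Of these 6 genes, Psmb5 and Psme2 thus kept their sign. The immunoproteasome minus constitutive difference was -0.0080 and -0.050. Among the 50 members the high-Xist difference minus the low-Xist one was largest in size in Psmg3 (-0.69), Psmb11 (-0.53), Psmg4 (0.47) and Psmg2 (0.43). At low Xist each treatment has 1 array, so all spread within a treatment and Xist level comes from the 4 high-Xist arrays. No test of this change between levels is given. Psmg3, another chaperone of core assembly, lay at 6.35, 6.52 and 5.91 with rat IgG and at 6.15, 6.08 and 6.28 with anti-CD25. The difference was -0.32 among the high-Xist arrays and 0.37 between the low ones, each of the latter being 1 array. Psmg3 is dim, at percentile 32.3, and was brightest on rat IgG 1, rat IgG 2 and anti-CD25 3. That order held in 18.3% of all genes and in 0.591% of the 30% brightest, so it is not particular to Psmg3.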

How the data were processed

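RNA of 6 samples was hybridised to Affymetrix arrays, 1 array per sample. The authors deposited an intensity for 24922 probe sets on each array, made with RMA in Affymetrix Power Tools per the submitters' processing notes, which corrects background, equalises quantiles and summarises probe sets. The sources used here give no versions. The intensity column of each deposited file is linear, so log2 was taken without a pseudocount. The deposited arrays were not equal in all quantiles. Their lower quartile was 57.6, 57.7 and 56.5 on rat IgG 1, rat IgG 2 and anti-CD25 3. On rat IgG 3, anti-CD25 1 and anti-CD25 2 it was 51.2, 51.9 and 51.4. Differences of dim genes can carry this imbalance, which was not tested. RMA draws dim probe sets together, which understates their differences. Precision is limited by the 3 arrays a group.

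The platform annotation gave 1 symbol to 21425 rows, several to 1399 and none to 2098, and symbols were checked by Entrez identifier (21347 matched, 0 updated). Groups come from the sample titles. limma 3.58.1 in R 4.3.3 (lmFit and eBayes, two-sided, group as the only term) was fitted to all 19752 genes with Benjamini-Hochberg adjustment at 0.05, and was tested on simulated data.

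The members and lists were chosen with earlier results of these data known. Genes named are the 5 immunoproteasome and PA28 genes, Psmb5, Psmb6 and Psmb7, the highest and lowest member of each role, any member with an unadjusted p under 0.05, the 3 largest statistics of each related list, and 12 fixed genes, 10 of them measured; others were chosen after their values were seen. Alternatives were a second quantile normalization, median centring, array weights, an intensity trend in a robust fit, leaving out genes dimmer than percentile 30 or 50, the mean of all probe sets, the number in the titles as a block, Xist level, other sets and thresholds, and leaving out each array.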

Additional observations from a re-analysis of the deposited data

How the results depend on the processing

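No fit called any of the 50 members at an adjusted p of 0.05, under any normalization, filter, weighting or Xist setting run or with any array left out (0 throughout). In the main fit 0 passed an adjusted p of 0.1 or an unadjusted p of 0.05, and these 2 thresholds were not applied to the other fits here. The immunoproteasome mean difference of 0.00052 ran from -0.051 to 0.042 with an array left out, the constitutive one of 0.023 from 0.0014 to 0.038, and their difference of -0.022 from -0.087 (without anti-CD25 1) to 0.041 (without anti-CD25 2). With Psmb8, Psmb9 and Psmb10 set against Psmb5, Psmb6 and Psmb7 alone it was 0.091, and with medians of the members in place of means 0.010. The cause of these shifts was not tested. After a second quantile normalization the immunoproteasome mean difference was -0.022 and the constitutive one -0.0091, and 9 of the 50 members turned sign, among the genes chosen by the naming rule Psmb10 (-0.00083), Psme2 (-0.00040), Psma7 (-0.021) and Psmg2 (-0.0035). In the 4 arrays with high Xist alone 13 of the 50 did, and among the rule-chosen genes Psme1 (0.013), Psmb7 (0.025), Psmd3 (0.0066), Psmb4 (-0.026), Psmb1 (0.047), Psmb11 (-0.17), Irf1 (0.088) and Pomp (0.048). Among the rule-chosen genes, with array weights Psmb4 (-0.011), Psmb11 (-0.062), Irf1 (0.032) and Pomp (0.016) did, Pomp also with median centring (0.0013), and Nlrc5 (0.012) with the mean of all probe sets. With an array left out 22 of the 50 did not keep their sign, and among the rule-chosen genes it was lost by Psmb8 (-0.036 to 0.14), Psmb9 (-0.11 to 0.012), Psmb10 (-0.053 to 0.088), Psma7 (-0.11 to 0.10), Psmg2 (-0.033 to 0.12), Psme4 (-0.070 to 0.015), Psmb4 (-0.044 to 0.16), Psmb1 (-0.093 to 0.0091), Psmb11 (-0.087 to 0.12), Ifng (-0.18 to 0.050), Irf1 (-0.079 to 0.063), Nlrc5 (-0.21 to 0.0039), Tap1 (-0.099 to 0.076) and Pomp (-0.030 to 0.034). Same-numbered arrays did not deviate together from their group means (correlations 0.030, -0.0067 and -0.17). Xist was nevertheless high on numbers 1 and 2 and low on number 3 in both groups. These correlations therefore cannot settle whether the numbers pair the samples. With the replicate block 0 members were called.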
